A study of Homo sapiens and Mus musculus and synthetic construct with 31 samples.

Results

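The nuclear-encoded respiratory chain subunits described here are 54 genes of oxidative phosphorylation, made up of 32 subunits of complex I (NDUFA, NDUFB, NDUFS and NDUFV genes), the 4 subunits of complex II (SDHA to SDHD), 7 subunits of complex III (UQCR genes and CYC1), the mobile carrier cytochrome c (CYCS) and 10 subunits of complex IV (COX genes). The list was drawn up with earlier results of these data known and selects by gene symbol alone, and all 54 were found among the 63677 human and the 37991 mouse genes counted and among the 14450 pairs of human and mouse genes that carry the same symbol.

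The respiratory chain sits in the inner mitochondrial membrane. Complex I takes electrons from NADH and complex II takes them from succinate, ubiquinone carries them to complex III, cytochrome c carries them on to complex IV, and complex IV passes them to oxygen, while complexes I, III and IV pump protons that drive ATP synthase. Most subunits are encoded in the nucleus and imported, whereas the mitochondrial genome encodes a small set of core subunits, so a working complex needs transcripts from both genomes. Naive mouse embryonic stem cells are known to respire more than primed human ones, which rely more on glycolysis.

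Transcripts were profiled in human embryonic stem cells (hESCs, the HUES64 line, grown without feeders in mTeSR1 medium) and in mouse embryonic stem cells (mESCs, derived from blastocysts and grown without feeders in 2i medium), together with a massively parallel reporter assay (MPRA) in the same cells. Untransfected cells were compared with cells transiently transfected with the MPRA plasmid library by means of lipofection, with LipofectStem in hESCs and a different Lipofectamine reagent in mESCs. There were 3 passages in each of the 4 groups, with 1 library per passage except for transfected hESCs, where each passage was transfected 3 times. The 3 transfections of a passage are technical replicates and were summed, so n is 3 passages per group, and p-values measure the spread between passages of a single line per species. Adherent hESCs received more plasmid per cell than mESCs, which were transfected in suspension. Line, medium, reagent, plasmid per cell and format differ between the species, so their effects and that of the species cannot be told apart.

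Total counts per RNA-seq library ranged from 15107041 to 22018956, and the 54 genes took 0.4986% to 0.742% of them. Summed over the marker list of naive pluripotency, levels were 2244 to 2527 cpm (counts scaled to a common library total) in mESCs and 205.7 to 239.7 cpm in hESCs, and over the list of primed pluripotency 3145 to 4213 cpm in hESCs and 109.2 to 185.6 cpm in mESCs. The core pluripotency list summed to 3362 to 3931 cpm in hESCs and 2456 to 2769 cpm in mESCs. Summed fibroblast markers (8 genes, 2 to 5 of them at 0 in a group) were 187.4 to 243.5 cpm in untransfected hESCs, 280.4 to 371.2 cpm in transfected hESCs and 2.73 to 3.966 cpm in mESCs, and neural markers (4 of 5 matched) summed to 368 to 467.9 cpm in untransfected and 587.5 to 637 cpm in transfected hESCs. The neural sum is almost all NES (362 to 459 cpm in untransfected and 571 to 668 cpm in transfected hESC libraries), while DCX lay at 4.95 to 7.87 cpm in untransfected against 1.42 to 3.51 cpm in transfected libraries and PAX6 at 0.772 to 1.55 cpm against 0.129 to 0.572 cpm. Their part in the transfection results was not tested. In bulk RNA, fewer cells of a type and less RNA per cell cannot be told apart.

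A property of the counting bears on several of the genes. Fragments were assigned to genes without regard to strand, and a fragment lying in exons of more than 1 gene was left out. In the human annotation of the count files, 9 of the 54 genes (16.67%) have over 50% of their coding bases inside exons of another gene, against 3.813% of all pairs. These were NDUFA7 and NDUFV2 (100% of coding bases each), NDUFA13 (98.4%), NDUFB8 (83.9%), NDUFA9 (80.8%), NDUFA11 (74%), SDHD (65.8%), COX8A (55.1%) and COX6A1 (53.5%). In mouse, NDUFB2 shares 72.7% of its coding bases, and a second Ndufb8 entry has all of its 225 exon bases in exons of other genes, 134 of them in the main Ndufb8 entry. The human genes that mainly cover the 9 members were themselves counted at 0 to 1.51 cpm. All 13 mitochondrially encoded subunits are listed at 0 in every hESC library, while they took 1.771% to 2.168% of counts in mESCs, so no fold change is given for them.

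The first comparison asked how the genes differed in level between mESCs and hESCs with transfection status as a covariate. At an adjusted p under 0.01 and a log2 fold change of 1 or more in size (edgeR quasi-likelihood test over 11413 pairs), 14 of the 54 genes were higher in mESCs (25.9%) and 6 were lower (11.1%), against 26.4% higher and 29.4% lower over all pairs tested. The median log2 fold change was 0.36 over the 54 genes and -0.03 over all pairs. Complex II had 3 of 4 genes higher, complex IV 4 of 10 higher and 1 lower, complex III 1 of 7 lower and complex I 7 of 32 higher and 3 lower, and CYCS was lower. All 9 genes with mostly shared human coding bases were among the 14 that were higher, with log2 fold changes from 1.21 to 7.53. Among the 44 genes that had no such sharing in either species, 5 were higher (NDUFS4, SDHA, SDHB, COX6C and COX7B) and 5 were lower (NDUFS5, NDUFA5, UQCRH, CYCS and COX7C), with a median of 0.21. A fit without the shared pairs also called 5 and 5 of 44, against 25.6% higher and 29.4% lower of 10940 pairs.

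**Figure D1:**
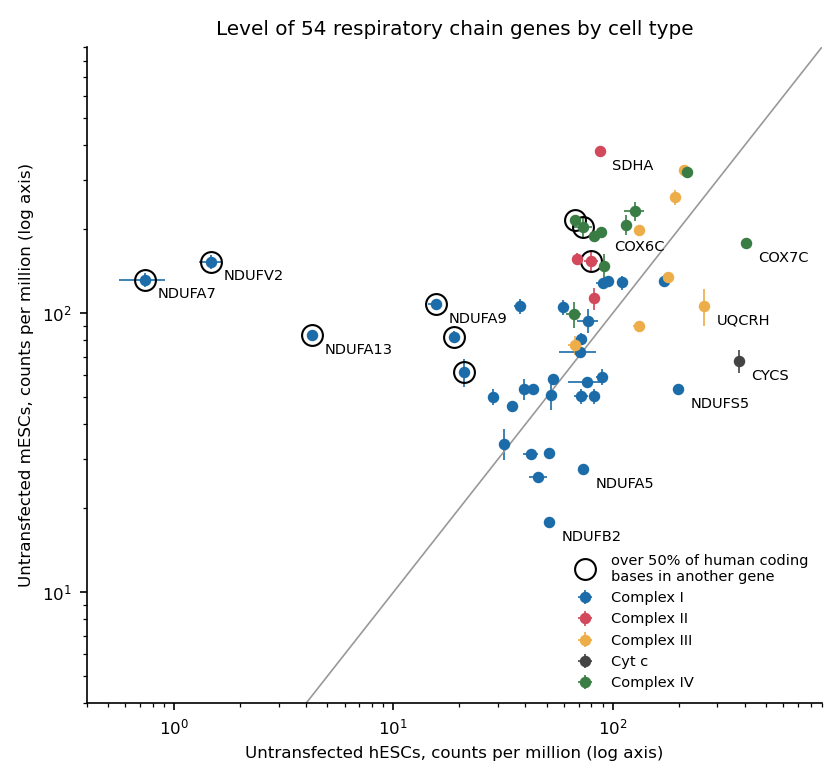
Mean level of each gene in untransfected hESCs (x axis) and untransfected mESCs (y axis), both in cpm on log axes, with the SD of 3 passages as bars and colors for the complexes. The ringed genes have over 50% of human coding bases in exons of another gene and all lie above the diagonal of equal levels, while CYCS, NDUFS5 and NDUFB2 lie furthest from it on the other side.

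Complex II, which is both succinate dehydrogenase of the citric acid cycle and an entry point of the chain, had 3 of 4 genes called on raw counts and 2 of 4 (SDHA and SDHD) on counts scaled by exon length. SDHA, the flavoprotein that oxidizes succinate (hg19 chr5:218356-256815), was measured at 83.8 to 123 cpm in the 6 hESC samples (median 89) and at 339 to 395 cpm in the 6 mESC samples (median 372). No hESC sample reached the lowest mESC sample, and the log2 fold change was 2.00 ± 0.10 (SE, adjusted p = 1.3e-10). Reads of SDHA can be split with its pseudogenes, which held 23.92% of the joint human counts, and with those counts added SDHA remained higher in mESCs (log2 fold change 1.57). SDHB, the iron-sulfur subunit that passes electrons on, ran from 65.6 to 114 cpm in hESCs (median 75.6) and from 152 to 168 cpm in mESCs (median 157), with a log2 fold change of 1.01 ± 0.10 that dropped under the threshold without untransfected hESC passage 1 (0.97) or passage 2 (0.99), with DESeq2 (0.99), with library size alone (0.97), in transfected samples only (0.82) and when scaled by exon length (0.77). SDHD, a membrane anchor, had 60.9 to 83.6 cpm in hESCs and 144 to 191 cpm in mESCs (log2 fold change 1.21), but most of its human coding bases are shared. SDHC, the other anchor, overlapped between the cell types (79.4 to 117 cpm in hESCs and 101 to 140 cpm in mESCs) and did not pass the fold threshold (log2 fold change 0.44). Without SDHD, the summed complex II level was 238 ± 8.46 cpm (SD, n = 3) in untransfected hESCs and 650 ± 27 cpm (SD, n = 3) in untransfected mESCs.

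Promoters of respiratory chain genes are known to bind common regulators, among them nuclear respiratory factor 1 (NRF1), the ETS-family factor GABP and YY1. RefSeq promoter sequences (GRCh38.p14, 250 bases before to 50 after the start) matched 47 of the 54 human genes. Letters were searched on both strands, and matches of different motifs may overlap. The NRF1 motif was found in 10 of the 47 promoters (21.3%), against 8.58% of 15843 protein-coding promoters, the ETS letters CCGGAAG in 14 (29.8%, against 14.2%) and the YY1 letters AAGATGGC in 8 (17%, against 3.91%). The 8 YY1 matches all began 10 to 25 bases after the start, none of them upstream. The letters CCAAT were found in 29.8% (36.4% of all), the SP/KLF letters GGGCGG in 59.6% (58.5%) and TATAAA in 10.6% (9.63%). The SDHA promoter held the most NRF1 matches, 4, and is shown with them in capitals (GRCh38.p14 chr5:218070-218369, plus strand). A match describes the letters and not a bound site.
SDHA promoter: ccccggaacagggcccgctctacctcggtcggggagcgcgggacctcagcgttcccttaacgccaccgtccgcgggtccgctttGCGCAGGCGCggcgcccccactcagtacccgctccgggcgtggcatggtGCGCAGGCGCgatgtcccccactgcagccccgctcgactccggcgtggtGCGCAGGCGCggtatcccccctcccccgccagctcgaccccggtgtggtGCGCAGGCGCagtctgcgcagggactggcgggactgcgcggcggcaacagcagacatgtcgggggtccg

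In complex IV, which reduces oxygen to water, 9 of 10 genes had a log2 fold change above 0. COX7B, a small structural subunit, was measured at 81 to 102 cpm in hESCs (median 82.8) and at 181 to 193 cpm in mESCs (median 186), with a log2 fold change of 1.16 ± 0.07 (adjusted p = 1.9e-09). COX6C, another small subunit, had 86 to 107 cpm in hESCs (median 90.2) and 187 to 214 cpm in mESCs (median 198), also a log2 fold change of 1.16 ± 0.07. In both genes the cell types were apart by more than the range within either. COX6A1 (65.3 to 101 cpm against 211 to 263 cpm) and COX8A (66.6 to 123 cpm against 187 to 225 cpm) were higher in mESCs as well, with log2 fold changes of 1.65 and 1.33, and both share over 50% of their human coding bases. Scaled by exon length outside other genes, COX8A was at 0.25 and was not called. COX7C went the other way, with 385 to 554 cpm in hESCs (median 414) and 175 to 195 cpm in mESCs (median 183), and a log2 fold change of -1.23 ± 0.08 (adjusted p = 6.6e-09). The summed level of the 8 complex IV genes without sharing was 1192 ± 21.4 cpm in untransfected hESCs and 1571 ± 35.9 cpm in untransfected mESCs (SD, n = 3 each).

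On raw counts neither complex III nor cytochrome c had a gene called higher in mESCs, whereas on counts scaled by exon length UQCRB (log2 fold change 2.80), UQCRC1 (1.19) and UQCRC2 (1.26) were higher. UQCRH, the hinge protein that helps cytochrome c dock on complex III, had 250 to 347 cpm in hESCs (median 268) and 90.2 to 155 cpm in mESCs (median 115), with a log2 fold change of -1.22 ± 0.11 (adjusted p = 1.3e-07). CYCS itself (hg19 chr7:25159710-25164980) showed the lowest fold change of the 54 genes. It was measured at 384, 373 and 368 cpm in the untransfected hESC passages and at 62.5, 74.7 and 65.4 cpm in the untransfected mESC passages. Over all samples the lowest hESC value (238 cpm) stood above the highest mESC value (74.7 cpm), and the log2 fold change was -2.28 ± 0.13 (adjusted p = 8.5e-10). The other 6 complex III genes, among them the core proteins UQCRC1 and UQCRC2 and the catalytic cytochrome c1 (CYC1), had log2 fold changes from -0.55 to 0.63, and the summed complex III level was 1175 ± 12.8 cpm in untransfected hESCs and 1192 ± 32.2 cpm in untransfected mESCs (SD, n = 3 each).

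Complex I, the NADH dehydrogenase, held the highest fold changes of the 54 genes. NDUFA7 was measured at 0.462 to 1.06 cpm in hESCs and at 124 to 149 cpm in mESCs, NDUFV2, a subunit of the NADH-oxidizing module, at 0.53 to 1.68 and 143 to 160 cpm, and NDUFA13 at 3.75 to 6.1 and 82 to 105 cpm. In none of them did the cell types come near each other, with log2 fold changes of 7.53, 7.20 and 4.26, and these are the genes with the highest share of human coding bases inside other genes. A pseudogene of NDUFV2 held 80.43% of the joint human counts of gene and pseudogene, and with its counts added the log2 fold change was 4.92. NDUFA9 (log2 fold change 2.78), NDUFB8 (2.08) and NDUFA11 (1.48) completed the shared complex I genes that were higher in mESCs. Scaled by exon length outside other genes, NDUFB8 was at 0.16 and was not called. NDUFS4, an accessory subunit required for assembly and named here because it was the only higher complex I gene without sharing, had 34.3 to 40.2 cpm in hESCs (median 37.3) and 96.7 to 111 cpm in mESCs (median 105), a log2 fold change of 1.54 ± 0.08 (adjusted p = 2.8e-10) with no overlap between the cell types.

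Of the complex I genes that were lower in mESCs, NDUFS5, an accessory subunit of the membrane arm (hg19 chr1:39491990-39500308), had 192 to 303 cpm in hESCs (median 207) and 51.1 to 60 cpm in mESCs (median 55.8), a log2 fold change of -1.98 ± 0.09 (adjusted p = 1.2e-10). NDUFB2 had 49.6 to 86.3 cpm against 17.1 to 19.5 cpm (log2 fold change -1.72), and this is the member whose coding bases are shared in mouse. NDUFA5 had 36.1 to 74.6 cpm against 24.6 to 32.5 cpm (log2 fold change -1.05 ± 0.17), and its call was lost when transfected hESC passage 3 (-0.92), transfected mESC passage 3 (-0.99) or any untransfected mESC passage (-0.95 to -0.96) was left out. In each of these genes the lowest hESC sample stood above the highest mESC sample. Of the core subunits that carry electrons, NDUFV2 was called, as given above, and NDUFS1 (-0.20), NDUFS8 (-0.59), NDUFV1 (0.42) and NDUFS7 (0.70) were not. Scaled by exon length, NDUFS1 (1.14), NDUFS8 (1.26) and NDUFS7 (2.46) were higher as well. The 25 complex I genes without sharing summed to 1798 ± 61.6 cpm in untransfected hESCs and 1709 ± 66.2 cpm in untransfected mESCs (SD, n = 3 each).

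**Figure D2:**
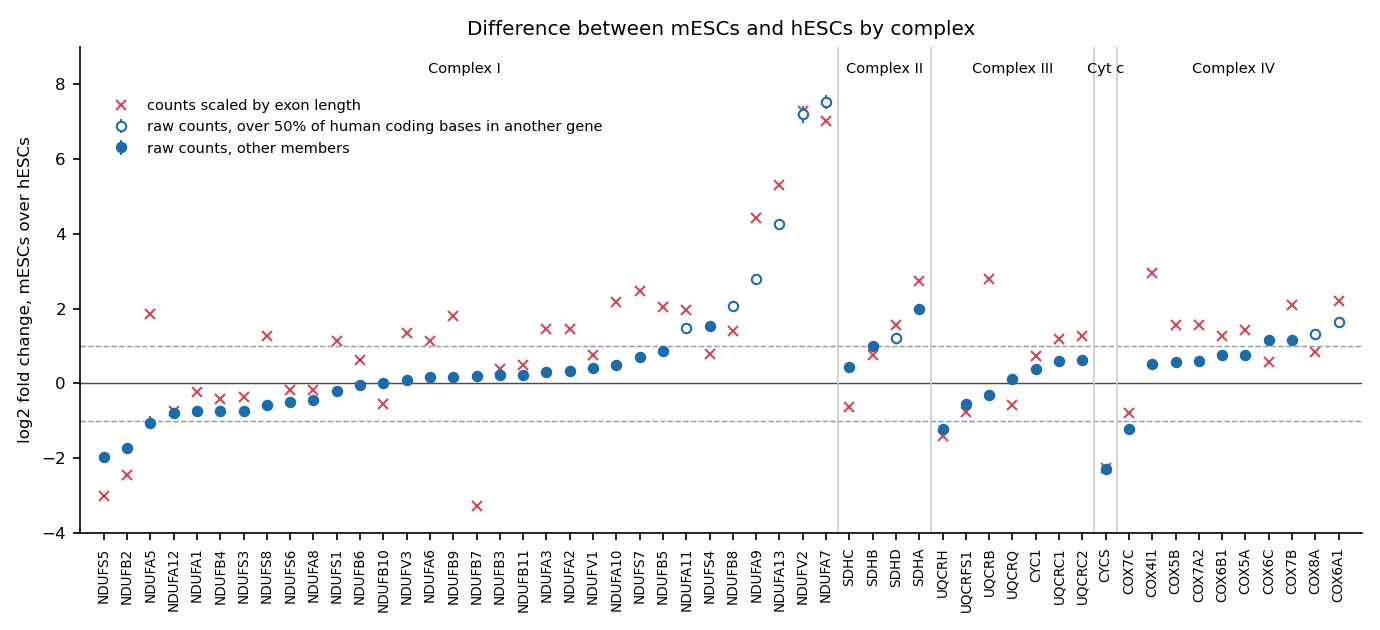
Log2 fold change of each gene in mESCs over hESCs, sorted within each complex, with bars for 1 SE (circles, raw counts; open circles, genes with over 50% of human coding bases in another gene) and the value after scaling by exon length (crosses). Dashed lines mark log2 fold changes of 1 and -1. Open circles are all above 1, and crosses of UQCRB, NDUFA5 and NDUFB7 lie far from their circles.

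Raw counts compare the same gene across species only as far as its transcripts are of like length. The lengths of the transcripts expressed were not measured, but the annotated exons of these genes differed in length. Annotated exon length joins all exons listed for a gene, so scaling by it also carries differences in how fully the genomes are annotated. Their part in the calls below was not tested. The median exon length of the 54 genes was 2070 bases in human and 1240 bases in mouse (median log2 ratio 0.84), against 4931 and 3834 bases over all pairs tested (0.29). When counts were scaled by exon length, 29 of the 54 genes were higher in mESCs and 5 lower (53.7% and 9.26%), against 28.8% and 31.3% of all pairs, and the median log2 fold change moved from 0.36 to 1.16. Among the 44 genes without mostly shared coding bases in either species, 21 were higher and 4 lower on this scale (47.7% and 9.09%). With the shared genes included, 17 of 32 complex I genes were higher, 2 of 4 of complex II, 3 of 7 of complex III and 7 of 10 of complex IV. Calls that rest on this scaling alone were 18 higher, with COX4I1 (log2 fold change from 0.52 to 2.96), UQCRB (from -0.30 to 2.80), NDUFS7 (from 0.70 to 2.46) and NDUFA10 (from 0.49 to 2.18) as the furthest, and 1 lower, NDUFB7 (from 0.19 to -3.28). UQCRB spans 9715 exon bases in the human and 876 in the mouse annotation, and NDUFB7 531 and 4522. Their coding lengths are the same in both species, 333 bases for UQCRB and 411 for NDUFB7. NDUFA5 turned from -1.05 to 1.85. Conversely, NDUFS4, SDHB, COX6C, COX8A and COX7C lost their calls. SDHA, COX7B and COX6A1 among the higher genes, and CYCS, NDUFS5, NDUFB2 and UQCRH among the lower ones, were called with the same sign on both scales, with CYCS at -2.28 and -2.25.

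Ranked per length in length-scaled units (TPM, counts per exon base scaled to the same total in every library), the most abundant members were NDUFS5 (1469 ± 39.8 TPM), COX7C (820 ± 23.7) and UQCRH (750 ± 19.1) in untransfected hESCs and COX4I1 (1272 ± 37.6), COX6B1 (1107 ± 85.6) and COX8A (1002 ± 92.2) in untransfected mESCs (SD, n = 3). The ranges of mean ± SD of COX6B1 and COX8A in mESCs overlapped, whereas those of COX7C and UQCRH in hESCs did not. The least abundant were NDUFA7 (1.9 ± 0.464 TPM), NDUFV2 (2.21 ± 0.252) and NDUFA13 (5.14 ± 0.308) in hESCs, which are the most shared genes, and NDUFB2 (8.56 ± 0.348) in mESCs. The median over the 54 genes was 141 TPM in untransfected hESCs and 183 TPM in untransfected mESCs. These ranks carry the annotated lengths with them.

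**Figure D3:**
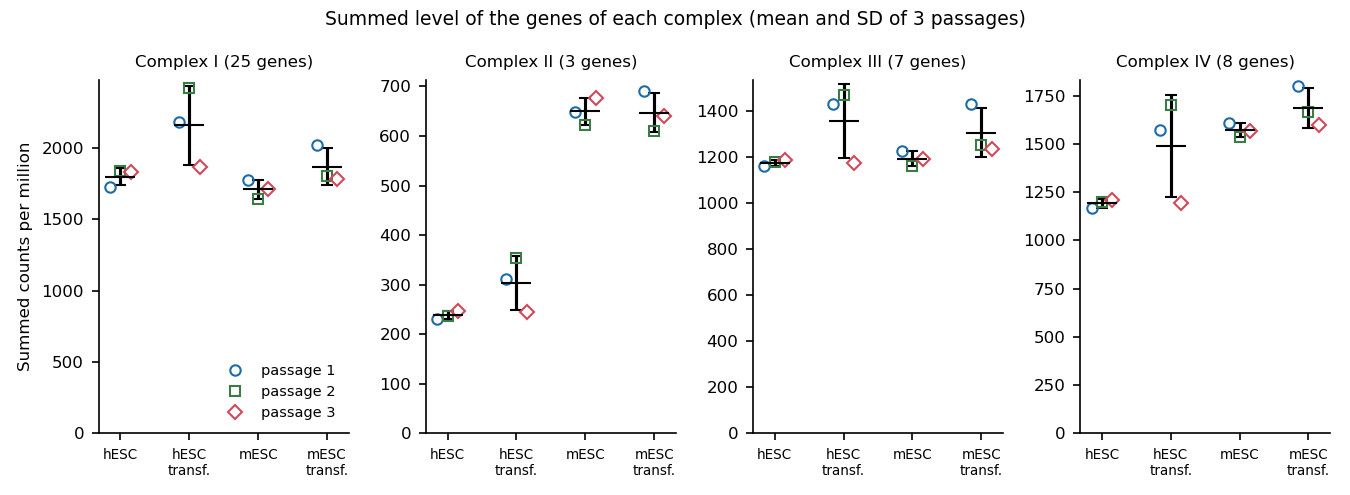
Summed cpm of the genes of complexes I to IV, leaving out genes with mostly shared coding bases in either species, in the 4 groups, with 1 symbol per passage and the mean and SD of 3 passages. Complexes II and IV stand higher in mESCs than in untransfected hESCs, complexes I and III do not, and passage 3 of the transfected hESCs stays at the untransfected level in every panel.

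Genes around the chain, taken from lists chosen with earlier results of these data in view, were compared in the same fit. Over all pairs of that fit, 26.4% were higher in mESCs and 29.4% lower. Of 16 ATP synthase genes, 2 were higher in mESCs (ATP5F1D, and ATP5MF with a log2 fold change of 1.08) and 1 lower (ATP5MG, -1.07), with a median of 0.63. ATP5MF shares 49.29% of its human coding bases and ATP5MG 16.83%. Of the 7 other chain subunits tested, NDUFC2 (1.24, with 86.8% of its human coding bases shared) and UQCR10 (1.21) were higher. Of 32 assembly factors tested, 4 were higher and 12 lower, with a median of -0.34. The lower ones included COX20 (-6.13), COA4 (-3.46), COX11 (-3.45) and COX16 (-2.94), which act in building complex IV, and the higher ones PET117 (3.90), COA5 (2.16), COX17 (1.03) and SDHAF2 (1.01). Of these, COX20 shares 88.1% of its coding bases in human and 88.9% in mouse, COX16 73.3% and 78.3%, and COX11 37.1% in mouse, while PET117 and SDHAF2 share 60.5% and 100% in human. PET117 has 243 coding bases in human, while the mouse entry paired with it has 2337. Its value, which is counted among the 4 higher, may therefore not compare the same gene. Among 15 regulators of the chain (median -0.37), ESRRB (9.63), GABPA (2.37) and NRF1 (1.46) were higher in mESCs, and TFB2M (-1.55), POLRMT (-1.16), PPARGC1B (-1.11) and PPARGC1A were lower, the last at 0.489 to 2.1 cpm in hESCs and 0 to 0.0662 cpm in mESCs. The tissue-restricted isoforms COX6B2 (43.8 to 77.8 cpm in mESCs, 0.533 to 1.28 cpm in hESCs) and COX7A1 (8.7 to 14.2 cpm in mESCs, 0.0355 to 0.321 cpm in hESCs) were higher in mESCs, and COX6B2 is another gene whose human coding bases lie wholly in a second gene.

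The transfection comparison in hESCs asked how the level of each gene differed after lipofection with the reporter library. No member passed an adjusted p under 0.05 (edgeR quasi-likelihood test over 18060 genes, 0.825% higher and 0.105% lower). The median log2 fold change was 0.35 over members and 0.00 over all genes. DESeq2 also called 0 members. All 3 transfected libraries of passage 3 stood apart from those of passages 1 and 2: 30.4% to 57.1% of genes in each library of passages 1 and 2 differed from the untransfected mean by at least 0.5 on the log2 scale, against 11% to 12.6% in the libraries of passage 3. The median change of the 54 genes was 0.38 in passage 1, 0.54 in passage 2 and 0.04 in passage 3, on a scale of log2(cpm + 0.5) over the untransfected mean. Without the transfected passage 3, 36 members were higher after transfection and 5 lower (66.7% and 9.26%, median log2 fold change 0.48), against 24.6% and 28.2% of the 17160 genes then tested. Of the leave-one-out fits it called the most genes (9062, against 168 with all passages). It drops the passage with the smallest change and was singled out after seeing the data. Its p-values therefore describe transfected passages 1 and 2 and do not test the response over all 3. Leaving passage 3 out of both groups gave 34 higher and 2 lower, against 17.8% and 22.3% of genes.

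Without the transfected passage 3, most genes of each complex were higher and CYCS was lower. Of complex I 20 of 32 genes were higher, of complex II 3 of 4, of complex III 5 of 7 and of complex IV 8 of 10. CYC1, the heme subunit of complex III, was measured at 132, 133 and 130 cpm in the untransfected passages and at 211, 229 and 138 cpm in the transfected passages 1, 2 and 3. Its log2 fold change was 0.76 ± 0.09 without passage 3 (adjusted p = 0.003) and 0.57 with all passages (adjusted p = 0.17). NDUFS7, an iron-sulfur subunit of complex I, went from 27.5, 28.9 and 29.4 cpm to 45.5, 48.9 and 31.6 cpm, and NDUFB7 from 45, 42 and 43.1 cpm to 68.4, 72 and 46.2 cpm. COX7A2 had 92.6, 91.1 and 90.3 cpm untransfected and 146, 145 and 94 cpm transfected, and COX6B1, which lies at the cytochrome c side of complex IV, had 115, 116 and 114 cpm against 174, 188 and 119 cpm. In each of these 5 genes all transfected passages were above the untransfected ones, with passage 3 nearest to them.

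The 5 members that were lower without the transfected passage 3 were CYCS, NDUFA5, NDUFS1, UQCRB and NDUFV2. CYCS had 384, 373 and 368 cpm in untransfected and 285, 238 and 366 cpm in transfected hESCs, so that passages 1 and 2 lie below every untransfected passage, and its log2 fold change without passage 3 was -0.49 ± 0.11 (adjusted p = 0.0095). NDUFA5, a subunit of the matrix arm, had 74.3, 74.6 and 71.8 cpm against 42.9, 36.1 and 66.3 cpm (-0.87 ± 0.12, adjusted p = 0.0033). NDUFS1, the largest subunit of complex I, had 175, 169 and 170 cpm against 145, 111 and 161 cpm (-0.40 ± 0.14, adjusted p = 0.042). In both genes every transfected passage was below the untransfected ones. UQCRB had 179, 177 and 178 cpm against 142, 142 and 193 cpm (-0.30), with passage 3 above the untransfected range. NDUFV2 was lower too, but at 0.53 to 1.68 cpm.

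**Figure D4:**
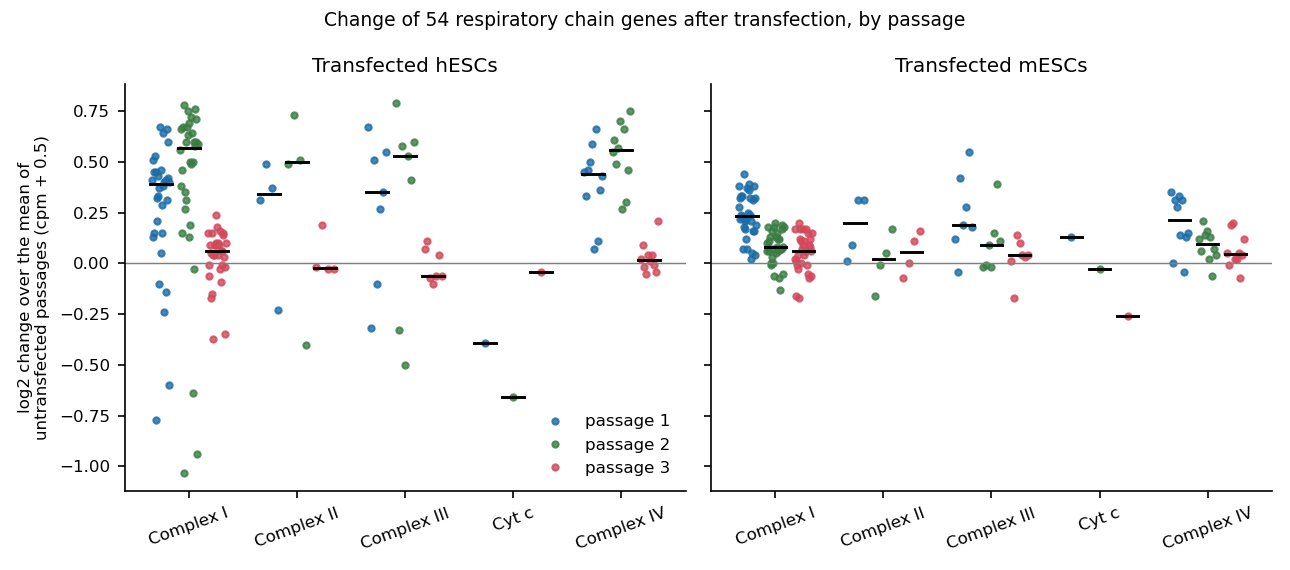
Log2 change (cpm + 0.5) of each of the 54 genes in each transfected passage over the mean of the 3 untransfected passages, for hESCs (left) and mESCs (right), by complex, with a bar at the median. Passages 1 and 2 of the hESCs have medians of 0.38 and 0.54 over the 54 genes, passage 3 has 0.04, and the mESC medians are 0.23, 0.07 and 0.05.

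NDUFS1, NDUFA5 and UQCRB have the longest annotated exons of the 54 genes (12268, 9851 and 9715 bases). Over the 54 members, the Spearman correlation between exon length and the change was -0.19 in passage 1, -0.30 in passage 2 and -0.27 in passage 3, and over all 18060 genes it was -0.21, -0.24 and -0.04. These are descriptions across genes that share libraries. Of the 18 members with the shortest exons (507 to 1472 bases), 17 had a change above 0 averaged over passages 1 and 2. Of the 18 with exons of 1488 to 3236 bases, 16 had, and of the 18 with the longest (3350 to 12268 bases), 13 had. The median changes of these groups lay close together, at 0.48, 0.44 and 0.43 from the shortest to the longest. The part of transcript length in the change was not tested.

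In mESCs, transfection with the same library gave smaller values than in hESC passages 1 and 2. Plasmid per cell was lower in mESCs, and the reagent and format differed. No member passed an adjusted p under 0.05 in the fit without pairing (edgeR, 14436 genes, 0.423% higher and 0.672% lower), and DESeq2 called 0 members. The median log2 fold change was 0.14 over members and 0.01 over all genes. Same-numbered transfected and untransfected mESC passages deviated together, and with the passage as a replicate block 8 members were higher and none lower (14.8% of members, against 10.3% of genes higher and 12.7% lower). These were UQCRH (log2 fold change 0.32 ± 0.06, adjusted p = 0.0048), NDUFB3 (0.25), NDUFS7 (0.23), UQCRC1 (0.22), SDHD (0.21), COX6A1 (0.21), NDUFB9 (0.20) and COX7A2 (0.17). UQCRH was measured at 122, 107 and 90.2 cpm in the untransfected passages 1, 2 and 3 and at 155, 138 and 107 cpm in the transfected ones, so that the groups overlap but each passage is higher when transfected. UQCRC1, a core protein of complex III, had 343, 312 and 321 cpm against 435, 346 and 357 cpm. The median change of the 54 genes within the same passage was 0.18 in passage 1, 0.13 in passage 2 and 0.05 in passage 3.

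Whether the response differed between the cell types was tested as an interaction. The differences in reagent, plasmid per cell and format are part of it and cannot be told apart from cell type. With all samples, 0 of 54 members passed an adjusted p under 0.05 (edgeR over 11413 pairs, 0.166% with a higher and 0.429% with a lower response in mESCs). DESeq2 also called 0 members. Without the transfected hESC passage 3, 4 members had a higher and 10 a lower response in mESCs (7.41% and 18.5%), against 18.1% and 7.29% of pairs. The higher ones were NDUFV2 (1.17), NDUFA5 (0.98 ± 0.18, adjusted p = 0.0042), SDHD (0.58) and NDUFS1 (0.45). The lower ones were CYC1 (-0.65 ± 0.11, adjusted p = 0.0038), NDUFB2 (-0.61), SDHB (-0.53), NDUFB4, NDUFB7 and COX7A2 (-0.45 each), NDUFA2 and COX6B1 (-0.43 each), and SDHA and UQCRQ (-0.42 each). With passage 3 left out of both hESC groups, 3 members were called higher and 5 lower. Over all pairs tested 2130 were called, both directions together. That total does not show whether the members' counts or directions differ from those of all pairs. COX7A2 (-0.44, adjusted p = 0.081) and NDUFS1 (0.46, adjusted p = 0.083) were among the members not called then.

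The lists around the chain were read in hESCs without the transfected passage 3 as well, where 24.6% of all genes were higher and 28.2% lower. Of 16 ATP synthase genes 10 were higher and 0 lower (median 0.40), of 8 other chain subunits 7 were higher and 0 lower (median 0.49), of 45 assembly factors 18 were higher and 8 lower (median 0.23), and of 15 regulators 6 were higher and 6 lower. GABPA, a DNA-binding subunit of the ETS-family factor also called NRF2, was measured at 51.8, 47.6 and 43.3 cpm in untransfected and at 20, 12.3 and 41.5 cpm in transfected hESCs (-1.53, adjusted p = 0.0033), with passages 1 and 2 below every untransfected passage. TFAM, the packaging and transcription factor of mitochondrial DNA, changed by -1.14 (adjusted p = 0.003), and LRPPRC, which stabilizes mitochondrial messengers, by -1.31 (adjusted p = 0.0036). With all passages none of the 4 lists held a called gene.

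The reporter library held 19 tested sequences within 500 bases of the start of 6 members (NDUFA8, NDUFA11, NDUFB2, NDUFB6, NDUFS3 and COX6A1), each 144 bases long and present in the transfected plasmids with a median of 13 barcodes. The library was built around start sites of both genomes, with tile 2 upstream of tile 1 and overlapping its end. Activity is the ratio of RNA to DNA reads of a sequence over the median ratio of 1604 random sequences, so that 1 is background, and the upper end of the central range of random sequences was 2.28 to 3.16 in the 6 passages. The same plasmid pool was transfected into both cell types. Of the 19 sequences, 3 were more active in mESCs and 1 less active (adjusted p under 0.05, edgeR over 13469 sequences, of which 8.11% were more and 13.8% less active in mESCs).

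The 6 sequences that were most active or that differed between the cell types are shown with NRF1, CCAAT and SP/KLF matches in capitals, on the strand that was cloned. Coordinates are hg19 for human and mm9 for mouse. The human NDUFA8 sequence carries a run in which a pair of NRF1 matches overlap, and 4.05% of human tile 1 sequences hold an NRF1 match. The mouse NDUFB2 sequence carries a CCAAT box (19.7% of mouse tile 1 sequences), the mouse NDUFA8 and NDUFB6 sequences carry SP/KLF matches (27.7% of mouse tile 2 and 37.1% of mouse tile 1 sequences), and the human NDUFB6 and NDUFS3 sequences carry none of the letters searched.
NDUFA8 human tile 1 (chr9:124922028-124922171, minus strand): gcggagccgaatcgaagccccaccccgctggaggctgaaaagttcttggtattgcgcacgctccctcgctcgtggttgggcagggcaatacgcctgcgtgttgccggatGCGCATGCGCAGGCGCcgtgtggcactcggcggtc
NDUFA8 mouse tile 2 (chr2:35904928-35905071, minus strand): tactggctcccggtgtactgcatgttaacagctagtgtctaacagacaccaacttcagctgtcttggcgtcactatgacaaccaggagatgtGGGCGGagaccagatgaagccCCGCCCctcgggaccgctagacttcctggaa
NDUFB2 mouse tile 1 (chr6:39542460-39542603, plus strand): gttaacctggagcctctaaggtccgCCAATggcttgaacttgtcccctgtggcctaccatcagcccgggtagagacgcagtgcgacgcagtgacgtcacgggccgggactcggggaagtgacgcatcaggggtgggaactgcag
NDUFB6 human tile 1 (chr9:32573088-32573231, minus strand): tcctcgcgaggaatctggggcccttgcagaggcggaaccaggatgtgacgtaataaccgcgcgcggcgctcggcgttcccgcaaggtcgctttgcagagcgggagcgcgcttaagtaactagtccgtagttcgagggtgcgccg
NDUFB6 mouse tile 1 (chr4:40226357-40226500, minus strand): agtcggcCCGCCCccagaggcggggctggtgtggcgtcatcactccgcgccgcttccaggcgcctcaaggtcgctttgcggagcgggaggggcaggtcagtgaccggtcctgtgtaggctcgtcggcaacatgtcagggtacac
NDUFS3 human tile 1 (chr11:47586723-47586866, plus strand): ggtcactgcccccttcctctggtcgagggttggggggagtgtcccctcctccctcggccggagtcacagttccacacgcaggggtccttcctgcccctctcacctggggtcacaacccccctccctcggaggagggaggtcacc

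NDUFB6, a membrane-arm subunit of complex I, had the most active sequences. Its human tile 1 gave 24.5, 26.7 and 31.1 in the hESC passages and 22.6, 19.3 and 28.8 in the mESC passages, and the mouse tile 1 gave 28.9, 28.8 and 33.5 against 25.8, 19.9 and 32.6. The cell types overlapped in both, with log2 differences of -0.11 ± 0.18 and -0.12 ± 0.17 (mESCs over hESCs, SE). Its tile 2 was weaker, at 1.43 ± 0.0623 for the human and 4.66 ± 0.0998 for the mouse sequence in hESCs (SD, n = 3).

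NDUFA8, a subunit of the membrane arm on the intermembrane side, had a sequence of each species that was called. The human tile 1 gave 5.84, 6.91 and 7.38 in hESCs and 8.14, 7.77 and 9.66 in mESCs, a log2 difference of 0.45 ± 0.14 (adjusted p = 0.016) that was not called without hESC passage 1 (0.39) or 2 (0.47) or when libraries were scaled to the random sequences (0.34, adjusted p = 0.14). The mouse tile 2 gave 2.13, 2.38 and 2.19 in hESCs and 3.31, 3.29 and 3.98 in mESCs, a log2 difference of 0.76 ± 0.12 (adjusted p = 2.4e-05). Its hESC values lay within the central range of random sequences of each passage, and its mESC values lay above it. In both sequences every mESC passage was above every hESC passage, while the transcript of NDUFA8 itself had a log2 fold change of -0.45 in mESCs. The human tile 2, which is further upstream, had a mean of 2.57 ± 0.401 (SD, n = 3 passages) in hESCs against 2.13 ± 0.104 in mESCs, which was not called (log2 difference -0.16 ± 0.12).

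The mouse NDUFB2 tile 1 gave 7.83, 9.23 and 9.07 in hESCs and 11.5, 11.1 and 15.7 in mESCs, with a log2 difference of 0.66 ± 0.14 (adjusted p = 0.00087), while its tile 2 stayed at 0.776 ± 0.0989 and 0.886 ± 0.0634. The human NDUFS3 tile 1 ends 22 bases upstream of where the hg19 annotation of the count files starts the entry of this core complex I subunit, in a span that overlaps PTPMT1 on the same strand. It shares no run of more than 9 bases with the RefSeq promoter of NDUFS3, whereas the NDUFA8 and NDUFB6 human sequences share runs of 124 to 144 bases with theirs, and the human NDUFA11 and COX6A1 sequences share at most 9 bases. It was the one sequence that was less active in mESCs, with 1.56, 1.64 and 1.53 in hESCs against 0.724, 0.907 and 0.698 in mESCs (log2 difference -0.91 ± 0.12, adjusted p = 5.5e-06), all within the range of random sequences. The transcripts of these genes had log2 fold changes of -1.72 for NDUFB2, which shares 72.7% of its coding bases in mouse, and -0.73 for NDUFS3. The remaining NDUFS3 sequences, the 3 NDUFA11 sequences, which lie on the opposite strand to the gene, and the 3 COX6A1 sequences, 146 to 260 bases inside the gene, had mean activities from 0.756 to 1.31 and none was called.

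**Figure D5:**
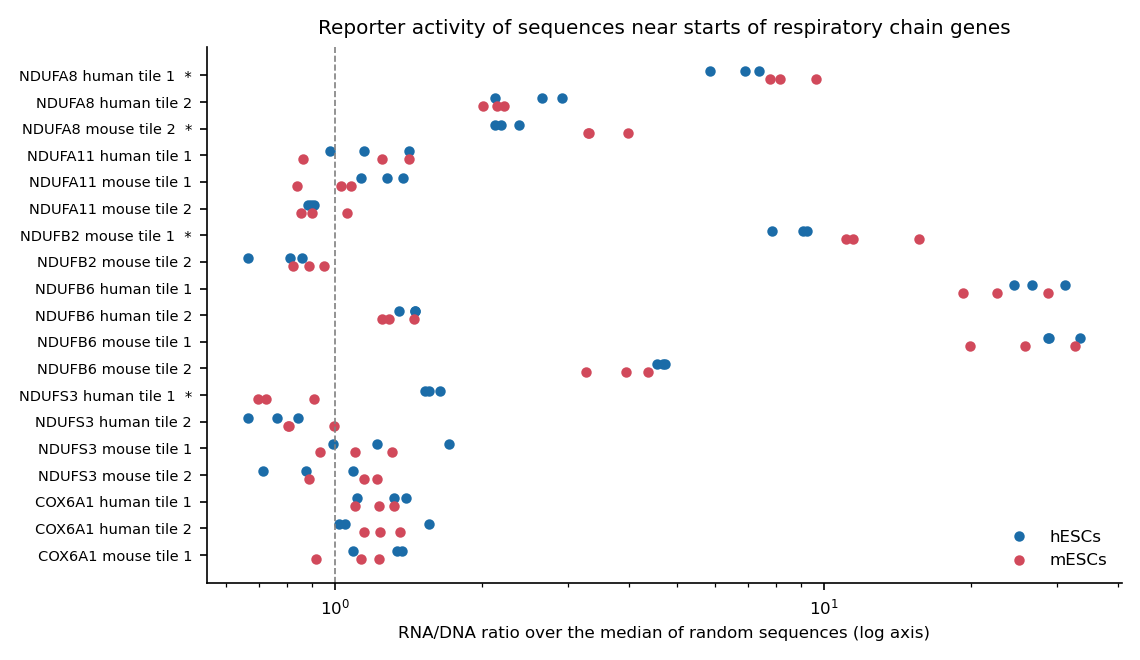
Reporter activity (RNA over DNA, relative to the median random sequence, log axis) of the 19 sequences near member starts in the 3 hESC and 3 mESC passages, 1 point per passage. The dashed line is the median random sequence and an asterisk marks the 4 sequences that differed between the cell types. NDUFB6 tile 1 of both species lies furthest right, between 19.3 and 33.5.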

How the data were processed

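The RNA-seq files hold raw counts of fragments per gene, which the authors made by aligning polyA-selected, unstranded paired reads with HISAT2 and counting over exons with featureCounts 2.0.0, without strand and without fragments that overlap several genes. The headers name hg19 and mm9, whereas the study names mm10. The reporter files hold raw counts of reads per barcode deposited by the authors, with no molecular identifiers. For HISAT2 and cutadapt no version is named in the sources used here. No per-sample column was left unused (0 columns).

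The members and gene lists were chosen with earlier results of these data known. Symbols matched 87.42% of human and 97.93% of mouse gene IDs, and 23 list genes were paired by an older symbol. Fits used edgeR 4.0.16 (quasi-likelihood test, TMM scaling, Benjamini-Hochberg adjustment) in R 4.3.3, with the 3 transfections of an hESC passage summed. The species fit had transfection as a covariate and kept pairs with at least 1 cpm in at least 3 samples. Transfection fits used filterByExpr. Alternatives used DESeq2 1.42.0 and limma 3.58.1. Reporter sequences lay within 500 bases of a member's start, with at least 10 DNA counts per barcode and 50% of barcodes kept, and the DNA count as offset. Reporter depth was 131913506 reads for DNA, 72917827 to 126600144 for hESC and 101861249 to 138483196 for mESC libraries. The procedures were tested on simulated data.

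Named were, per complex, the called members with the largest fold changes (up to 4 in each direction) in each comparison, those highest and lowest per length, those whose call rests on length or pseudogenes, those called for the interaction, called genes of the other lists (up to 4 in each direction) and every member with a reporter sequence. Genes named for hESCs without the transfected passage 3, and for the mESC block, were named under those alternatives. Passage numbers paired the mESC samples, since same-numbered transfected and untransfected samples correlated in their deviations from the group means (0.477, 0.478 and 0.555).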

Additional observations from a re-analysis of the deposited data

Results flagged for a closer look

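Of 58 sets of values checked for a single library far from the others, 1 stood out. NDUFB3, a subunit of complex I, was measured at 39.7 cpm in the second transfection of hESC passage 2, while the other 8 transfected hESC libraries lay between 32.3 and 34.9 cpm. The gap took up 0.647 of the whole range, above Dixon's critical value for 9 libraries. Chance flags about 1 in 20 such sets.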

How the results depend on the processing

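Members called higher in mESCs numbered 14 and members called lower 6. With an adjusted p under 0.05 and no minimum fold change these became 30 and 15. The higher ones numbered 29 when counts were scaled by exon length, 28 when scaled by exon length outside other genes and 5 when pairs with shared coding bases were left out. Scaled by exon length, and by exon length outside other genes, the log2 fold changes that turned with a call on either scale were NDUFA5 (1.85 and 1.85), NDUFB7 (-3.28 and -3.27), NDUFS1 (1.14 and 1.06), NDUFS8 (1.26 and 1.24) and UQCRB (2.80 and 2.87), and by exon length NDUFB6 (0.62), NDUFB10 (-0.55), SDHC (-0.63) and UQCRQ (-0.59) turned without a call. Leaving out each sample in turn gave 6316 to 6418 genes, 13 to 14 members higher and 5 to 6 lower, and a random passage block (limma-voom replicate block) gave 14 and 6. In hESCs, the 168 genes called after transfection became 2039 with 9 separate libraries, 994 with DESeq2, 2673 without a filter, 7333 without passage 3 in both groups and 62 with the replicate block, where passages were not paired (correlations of 0.148, 0.0379 and -0.0515). Members called higher were 2 with 9 libraries, 2 without a filter and 34 without passage 3, and lower 1 with 9 libraries and 2 without passage 3. Leaving out each sample in turn gave 2 to 9062 genes, 0 to 36 members higher and 0 to 5 lower, the highest without transfected passage 3. In mESCs, 158 genes became 998 with DESeq2, 55 with library size alone, 904 without a filter and 3316 with the replicate block, which called 8 members higher, and 0 to 166 genes and 0 to 0 members when samples were left out. For the interaction, 68 genes became 177 with 9 libraries, 224 with DESeq2 and 2130 without hESC passage 3, which called 3 members higher and 5 lower, and leaving out samples gave 15 to 2885 genes, 0 to 4 members higher and 0 to 10 lower. Reporter sequences called higher numbered 2 to 3 and lower 1 to 1 when passages were left out. The alternatives without passage 3 in both groups, without shared pairs and with exon length outside other genes were chosen after seeing the data. Leaving out the transfected hESC passage 3 alone was among the planned leave-one-out fits, but was singled out after seeing the data. The causes were not tested.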
